A study of Arabidopsis thaliana with 9 samples.

Results

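A set of 59 probe sets stood lowest in ARF10 seeds, intermediate in wild-type Col-0 seeds and highest in mARF10 seeds when the 3 genotypes of Arabidopsis thaliana were compared by their mean log2 signals. They were taken from 22746 probe sets of a 1-colour expression array, controls aside, by a rule on the values themselves, and so were selected on the group means and arrays described here. The mean over the 9 arrays had to reach a limit just under 5.723, the 30th percentile of all such means, and the mARF10 mean had to exceed the ARF10 mean by at least 1 on the log2 scale, which is 2-fold. Every mARF10 array also had to lie above every ARF10 array, which held in 9.58% of all tested probe sets and, by the rule, in all 59 members. The Col-0 mean had to stand between 0.25 and 0.75 of the way from the ARF10 mean to the mARF10 mean, a fraction called its place here. These conditions were met by 71 probe sets. Of these, 12 were left aside by name, among them the oleosin genes OLEO3 and AT3G01570, the iron-response gene PYE and 6 probe sets given only by their IDs. Of the 59 members, 33 carried 1 named gene and 26 were unnamed. Oleosins were left aside by gene, so any oleosin probe sets among the 26 unnamed members could not be recognised and remain in the set. All 9 arrays entered the rule, so the members' differences are given as a description, and calls of a model over all probe sets, which rest on the same arrays, support nothing about them.

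Each genotype was represented by 3 arrays, which the labels call independent biological replicates, and each sample combined 3 seed lots. Seeds were kept on wet filter paper in the dark at 4 °C for 3 days and then in light at 22 °C for 22 h, so all were imbibed and none was dry. Col-0 seeds carried no transgene. ARF10 seeds carried ARF10:ARF10-GFP, in which 3 kb of the gene's own upstream region drives the 2.3 kb coding region of AUXIN RESPONSE FACTOR10 fused to green fluorescent protein, with its microRNA160 target site intact. mARF10 seeds carried ARF10:mARF10-GFP, the same construct with 4 mutations in that site. The labels do not say how many transformed lines were used, and they name no loss of the plants' own ARF10 gene. No probe set was named ARF10 here, so the level of the transgene was not examined. Whole seeds were measured, so a smaller number of cells of one type and less RNA per cell cannot be told apart.

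AUXIN RESPONSE FACTOR10 is a transcription factor of the auxin response, and microRNA160 directs the cleavage of its transcript. Seeds that express a microRNA160-resistant form are known for increased sensitivity to abscisic acid, the hormone that maintains seed maturation and dormancy. During maturation, embryos accumulate storage proteins, late embryogenesis abundant (LEA) proteins and small defence peptides. After imbibition the transcripts of maturation decline while those of growth, cell wall change and greening appear.

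The Col-0 arrays differed from one another in their averages over the greening and LEA genes. Col-0 replicate 2 was lowest of all arrays for greening, and Col-0 replicate 1 was the lowest Col-0 array for LEA genes. On Col-0 replicate 2 the average over the 4 measured genes of photosynthesis and greening was 8.86 in log2 signal. It was 10.44 and 10.11 on Col-0 replicates 1 and 3, 10.25 to 10.62 on the ARF10 arrays and 9.82 to 10.55 on the mARF10 arrays. The 32 measured LEA genes averaged 9.47 on that array, while they averaged 8.51 and 9.16 on Col-0 replicates 1 and 3, 8.23 to 8.54 in ARF10 and 8.99 to 9.40 in mARF10 seeds. In the GAPDH control probe sets the signal of the 3′ end exceeded that of the 5′ end by 0.61 on Col-0 replicate 2 and by 0.14 to 0.60 on the other arrays. In the actin controls this excess was 2.74 on Col-0 replicate 2 and 2.34 to 2.86 on the other arrays. In the ubiquitin controls it was 1.71 and 1.54 to 1.77, so Col-0 replicate 2 was not the highest array in either. The seed coat marker BAN lay between 6.33 and 6.68 on every array, and no endosperm marker was named. The members' places and the counts under the rule are therefore given with and without each Col-0 array.

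Across the array, 130 probe sets met the conditions on mean, difference and separation of mARF10 from ARF10 whatever the place of Col-0. The place was below 0.25 in 16 of them, from 0.25 to 0.75 in 71 and above 0.75 in 43. Over the 59 members the place ran from 0.26 to 0.75 with a median of 0.44. The difference between mARF10 and ARF10 ran from 1.01 to 3.26 with a median of 1.38, against a median of -0.02 over the 15922 probe sets tested. It was between 1 and 1.5 in 39 members, between 1.5 and 2 in 9, between 2 and 3 in 9 and above 3 in 2. The median difference was 0.76 for mARF10 minus Col-0 and -0.67 for ARF10 minus Col-0, both bounded by the rule.

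**Figure D1:**
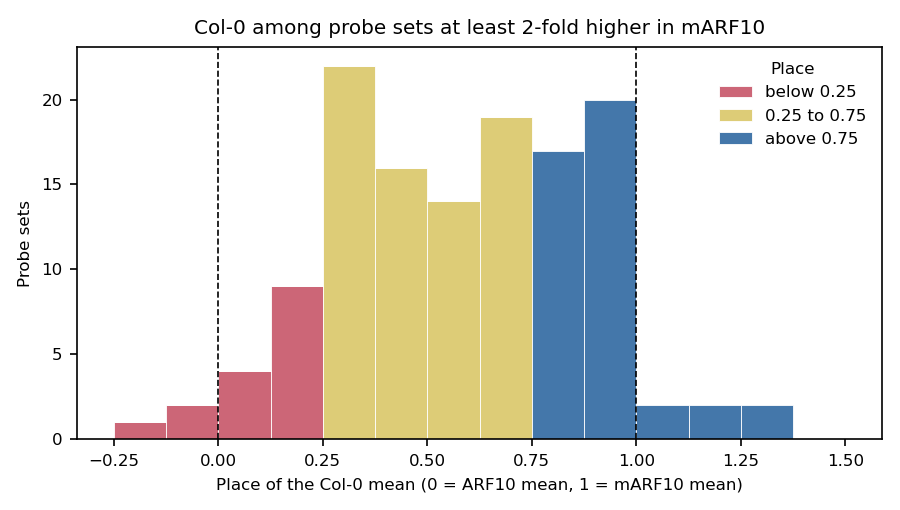
Histogram of the place of the Col-0 mean in the 130 probe sets at least 2-fold higher in mARF10 than in ARF10 with no overlap of their arrays. The horizontal axis runs from the ARF10 mean (0) to the mARF10 mean (1), the vertical axis counts probe sets, and the 71 probe sets between 0.25 and 0.75 are in yellow, before 12 were left aside by name.

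Small defence peptides held the 2 largest differences among named members. PDF2.1, a plant defensin, had log2 signals of 8.38, 8.57 and 8.42 on ARF10 replicates 1, 2 and 3, of 8.48, 11.73 and 10.22 on the Col-0 arrays and of 11.43, 11.49 and 10.95 on the mARF10 arrays, and replicates are listed in this order throughout. Its Col-0 replicate 1 lay among the ARF10 arrays, while Col-0 replicate 2 lay above every mARF10 array. The mARF10 mean exceeded the ARF10 mean by 2.83 (SE 0.64), or 7.13-fold, and the place of Col-0 was 0.60.

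AT2G15010, of the thionin family of antimicrobial peptides, was at 8.71, 9.24 and 8.80 in ARF10, at 9.36, 10.87 and 9.71 in Col-0 and at 11.72, 11.27 and 11.13 in mARF10 seeds. Here all Col-0 arrays lay above all ARF10 arrays and below all mARF10 arrays. The difference between mARF10 and ARF10 was 2.46 (SE 0.35), 5.49-fold, and the place was 0.43. PDF1.2b, a defensin whose family is known for its response to jasmonate and pathogens, was at 7.30, 7.62 and 7.39, at 7.51, 8.91 and 8.26, and at 8.52, 8.85 and 8.32. Its Col-0 replicate 2 exceeded every mARF10 array and its Col-0 replicate 1 overlapped the ARF10 arrays. The probes of this set can match near-identical copies, so its signal may not come from PDF1.2b alone. AT4G22212, a defensin-like gene, had means of 6.36 ± 0.42 in ARF10, 6.94 ± 0.96 in Col-0 and 7.69 ± 0.66 in mARF10 seeds (SD, n = 3). Its Col-0 arrays ran the other way, with 7.98 on replicate 1 and 6.09 on replicate 2.

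**Figure D2:**
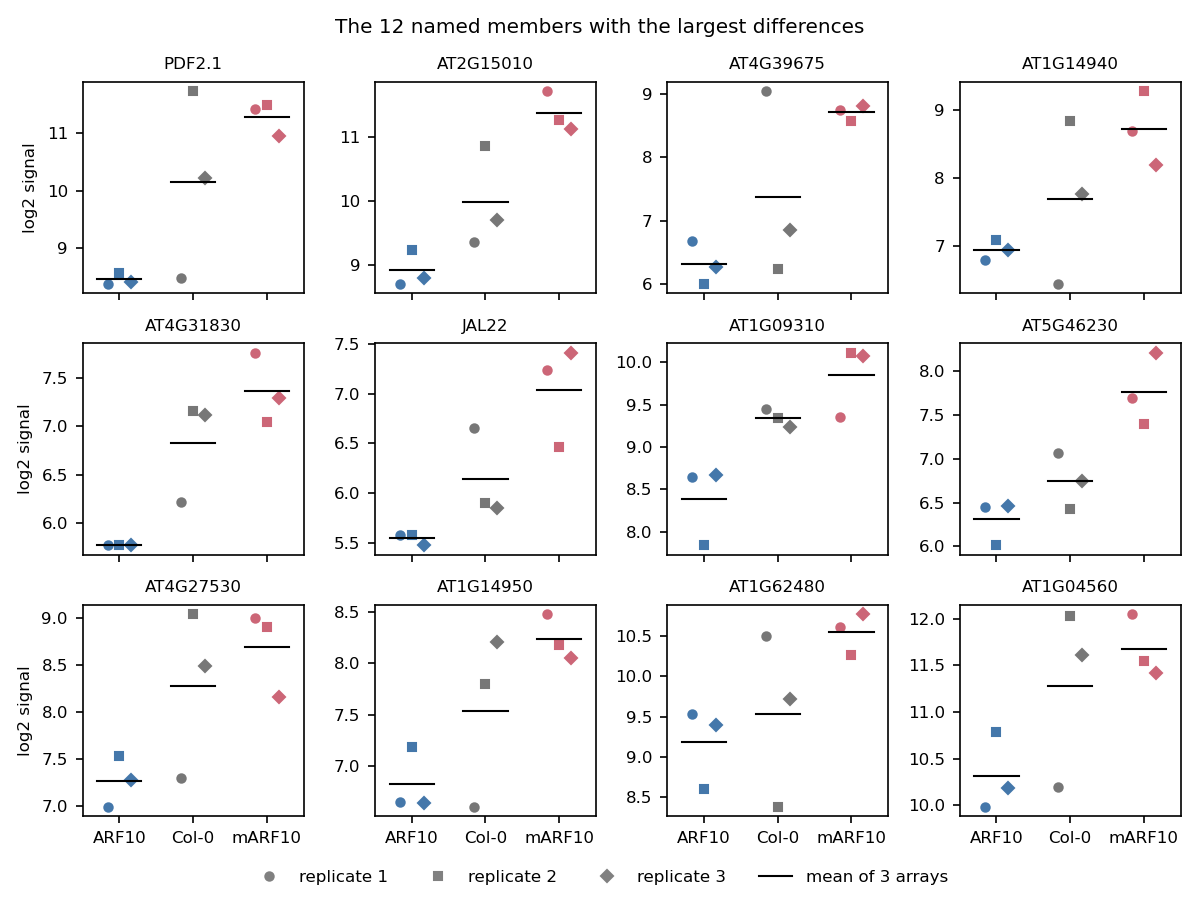
Log2 signal (vertical axis, scaled per panel) of the 12 named members with the largest mARF10 minus ARF10 difference, by genotype (horizontal axis), with 1 symbol per array and a line at the mean of 3 arrays. In PDF2.1 and AT1G04560 Col-0 replicate 1 lies with the ARF10 arrays and replicate 2 with the mARF10 arrays, and in AT4G39675 and AT1G62480 these Col-0 arrays change sides.

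The LEA and storage protein lists held 3 named members. AT3G15670, a LEA gene, was bright, at 10.89, 11.17 and 10.84 in ARF10, at 10.68, 12.22 and 11.86 in Col-0 and at 12.53, 11.93 and 11.55 in mARF10 seeds. AT4G36600, also a LEA gene, was at 7.28, 7.60 and 7.10, at 6.95, 8.82 and 8.36, and at 8.65, 8.32 and 8.16. In both, Col-0 replicate 1 was below every ARF10 array, and Col-0 replicate 2 was above the mARF10 mean. The cupin gene AT4G36700, of the vicilin-like storage protein family, was at 6.55, 7.21 and 6.54 in ARF10, at 6.85, 7.93 and 7.02 in Col-0 and at 8.67, 7.70 and 7.97 in mARF10 seeds. The difference between mARF10 and ARF10 was 1.04 (SE 0.37) for AT3G15670, 1.05 (SE 0.40) for AT4G36600 and 1.35 (SE 0.33) for AT4G36700.

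AT1G04560, of the AWPM-19-like family of membrane proteins and on none of the lists, was at 9.98, 10.78 and 10.18 in ARF10, at 10.20, 12.03 and 11.61 in Col-0 and at 12.05, 11.55 and 11.42 in mARF10 seeds. It had Col-0 replicate 1 inside the ARF10 range, and Col-0 replicates 2 and 3 inside the mARF10 range. EEL, the 1 measured gene of the abscisic acid list, which encodes a bZIP factor that binds the promoters of LEA genes of the Em class, differed from these. It was at 6.22, 6.03 and 6.01 in ARF10, at 6.65, 6.06 and 6.48 in Col-0 and at 7.37, 6.83 and 7.11 in mARF10 seeds, a difference of 1.02 (SE 0.17). All its Col-0 arrays were below the mARF10 arrays, and Col-0 replicate 2 was its lowest Col-0 array.

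Proteins of the Bet v 1 fold, which bind small hydrophobic molecules, were encoded by 3 named members. AT1G14940 was at 6.80, 7.10 and 6.95 in ARF10, at 6.45, 8.85 and 7.77 in Col-0 and at 8.69, 9.28 and 8.19 in mARF10 seeds. Its neighbour on the chromosome, AT1G14950, was at 6.65, 7.18 and 6.64, at 6.60, 7.80 and 8.21, and at 8.48, 8.17 and 8.05. Both had Col-0 replicate 1 below every ARF10 array. AT4G23670, of the same fold, had means of 8.07 ± 0.47 in ARF10, 8.74 ± 0.69 in Col-0 and 9.39 ± 0.34 in mARF10 seeds. There Col-0 replicate 1, at 9.49, was the highest of its genotype and Col-0 replicate 2, at 8.15, the lowest.

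Lectins and inhibitors of digestion formed a further group. JAL22, a jacalin-related lectin, was at 5.58, 5.58 and 5.47 in ARF10, at 6.66, 5.90 and 5.85 in Col-0 and at 7.24, 6.46 and 7.41 in mARF10 seeds. Its ARF10 arrays were below 5.723, so the size of its difference of 1.49 (SE 0.27) is uncertain. AT5G35940, of the same lectin family, had means of 8.89 ± 0.22, 9.20 ± 0.77 and 10.01 ± 0.43 in ARF10, Col-0 and mARF10 seeds. AT2G38870, a protease inhibitor of the potato inhibitor I family, had means of 9.45 ± 0.68, 10.33 ± 0.28 and 10.76 ± 0.28. Its spread was largest among the ARF10 arrays, where replicate 2 was at 8.67 and the others at 9.90 and 9.78.

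The members included 2 DUF538 genes. AT1G09310 was at 8.64, 7.84 and 8.67 in ARF10, at 9.45, 9.34 and 9.24 in Col-0 and at 9.36, 10.11 and 10.08 in mARF10 seeds. Its Col-0 arrays were close together, above every ARF10 array, and overlapped the mARF10 arrays at mARF10 replicate 1. AT5G46230 was at 6.45, 6.01 and 6.46, at 7.06, 6.43 and 6.75, and at 7.69, 7.39 and 8.21. Its Col-0 arrays were below every mARF10 array and overlapped the ARF10 arrays.

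Iron-deficiency genes contributed 2 named members beyond those left aside by the rule. BHLH101, a bHLH regulator of the response to low iron, was at 5.23, 5.36 and 5.36 in ARF10, at 5.74, 5.69 and 5.35 in Col-0 and at 6.62, 6.09 and 6.43 in mARF10 seeds. It was the dimmest member, with a mean of 5.76 over the 9 arrays, and its ARF10 arrays were below 5.723, so its difference of 1.06 (SE 0.15) is uncertain in size. AT5G05250, an iron-deficiency responsive gene, was at 9.55, 9.70 and 9.52, at 10.29, 10.54 and 9.82, and at 10.80, 10.54 and 10.82. Col-0 replicate 2 and mARF10 replicate 2 nearly coincided, yet its arrays were in the order ARF10, Col-0, mARF10 with no overlap.

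The following genes of the cell wall, oxidation and growth had differences between mARF10 and ARF10 of 1.01 to 1.22. AT5G64120 encodes peroxidase 71, and its means were 7.66 ± 0.76 in ARF10, 8.14 ± 0.44 in Col-0 and 8.84 ± 0.31 in mARF10 seeds. Its difference was 1.17 with all arrays and 0.74 without ARF10 replicate 2, below the limit of the rule. The SKU5-similar gene sks15, of the multicopper oxidase-like family, was at 6.16 ± 0.09, 6.45 ± 0.44 and 7.25 ± 0.38, and AT5G59170, an extensin-like gene, at 8.16 ± 0.11, 8.49 ± 0.33 and 9.17 ± 0.24. AUR3, an Aurora kinase of mitosis, was at 6.44 ± 0.29, 7.23 ± 1.01 and 7.62 ± 0.09, and its highest value of all arrays, 8.29, was on Col-0 replicate 1. AT5G44380, of the berberine bridge enzyme-like oxidases, was at 7.86 ± 0.57, 8.23 ± 0.55 and 8.99 ± 0.18. AT1G04040, of the acid phosphatase family, was at 7.63 ± 0.22 in ARF10 and 8.85 ± 0.70 in mARF10 seeds, and its Col-0 place was 0.31.

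Lipid, calcium and formate metabolism were each represented by 1 gene. AT5G01870, of the lipid transfer protein family, was the brightest named member after AT3G15670, at 10.90 ± 0.38 in ARF10, 11.42 ± 0.74 in Col-0 and 12.06 ± 0.17 in mARF10 seeds. AT1G62480, described as a vacuolar calcium-binding protein, was at 9.53, 8.61 and 9.40 in ARF10, at 10.50, 8.38 and 9.72 in Col-0 and at 10.61, 10.26 and 10.77 in mARF10 seeds. FDH, which encodes formate dehydrogenase, was at 8.01 ± 0.01, 8.87 ± 1.20 and 9.16 ± 0.30, and its Col-0 arrays were at 7.72, 10.12 and 8.77. The spread of FDH within Col-0 was therefore wider than its whole step from ARF10 to mARF10.

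Named members without a role given here were AT4G39675, AT4G31830, AT4G27530, AT1G25275 and AT5G24570. AT4G39675 was at 6.67 and 6.27 on ARF10 replicates 1 and 3 and lower on ARF10 replicate 2, at 9.05, 6.23 and 6.84 in Col-0 and at 8.75, 8.58 and 8.81 in mARF10 seeds, a difference of 2.40 (SE 0.59). Its Col-0 replicate 1 was the highest of the 9 arrays, while Col-0 replicate 2 lay inside the ARF10 range. AT4G31830 was at 5.77, 5.77 and 5.78, at 6.21, 7.16 and 7.12, and at 7.76, 7.04 and 7.29, so its ARF10 arrays were nearly equal and close to the lower limit of 5.723. AT4G27530 was at 7.00, 7.54 and 7.28, at 7.30, 9.04 and 8.49, and at 9.00, 8.91 and 8.16. AT1G25275 and AT5G24570 differed between mARF10 and ARF10 by 1.10 and 1.09.

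The 26 unnamed members had differences from 1.05 to 3.26, with a median of 1.62, and ARF10 means from 4.97 to 11.60. The largest difference among all members was in 254095_at, which was at 7.60, 8.39 and 7.34 in ARF10, at 8.93, 10.31 and 11.26 in Col-0 and at 11.75, 10.43 and 10.93 in mARF10 seeds. Next came 265095_at, at 7.03, 7.31 and 7.16, at 7.22, 9.20 and 9.49, and at 11.20, 9.36 and 9.97. In both, mARF10 replicate 1 was the highest array and Col-0 replicate 1 the lowest of its genotype. The smallest SE among the members was in 259008_at, at 11.43, 11.22 and 11.30, at 12.12, 12.13 and 12.17, and at 12.69, 12.56 and 12.43, a difference between mARF10 and ARF10 of 1.24 (SE 0.09) with no overlap between genotypes. The ARF10 mean was below 5.723 in 5 members, 2 of them named (JAL22 and BHLH101).

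The Col-0 arrays of the members were often spread widely around their intermediate mean. The SD over the 3 Col-0 arrays had a median of 0.69 over the members, against 0.22 over the ARF10 and 0.31 over the mARF10 arrays. Over all tested probe sets these medians were 0.14, 0.08 and 0.10. The rule limits the spread within ARF10 and mARF10, whose arrays may not overlap, and sets no such limit on Col-0, so nothing is read from the order of these medians. All 3 Col-0 arrays lay between the highest ARF10 and the lowest mARF10 array in 9 of the 59 members, against 0.308% of all tested probe sets. The rule used both contrasts, so nothing is read from that excess. Named among the 9 were AT2G15010 and AT5G05250. The mARF10 arrays were all above the Col-0 arrays in 19 members (5.26% of all tested), and the Col-0 arrays were all above the ARF10 arrays in 22 (3.61% of all tested).

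A Col-0 array exceeded the mARF10 mean in 21 members, and one was below the ARF10 mean in 25. In 12 members both held at once. Col-0 replicate 1 was the highest of its genotype in 32 members and the lowest in 22. For Col-0 replicate 2 these counts were 17 and 26, and for Col-0 replicate 3 they were 10 and 11. On its own, Col-0 replicate 3 lay between the ARF10 and mARF10 arrays in 39 members, replicate 1 in 26 and replicate 2 in 23. The rule keeps the ARF10 and mARF10 arrays apart and the Col-0 mean between their means. These counts were not made over all tested probe sets, so they are not read as a trait of the members.

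**Figure D3:**
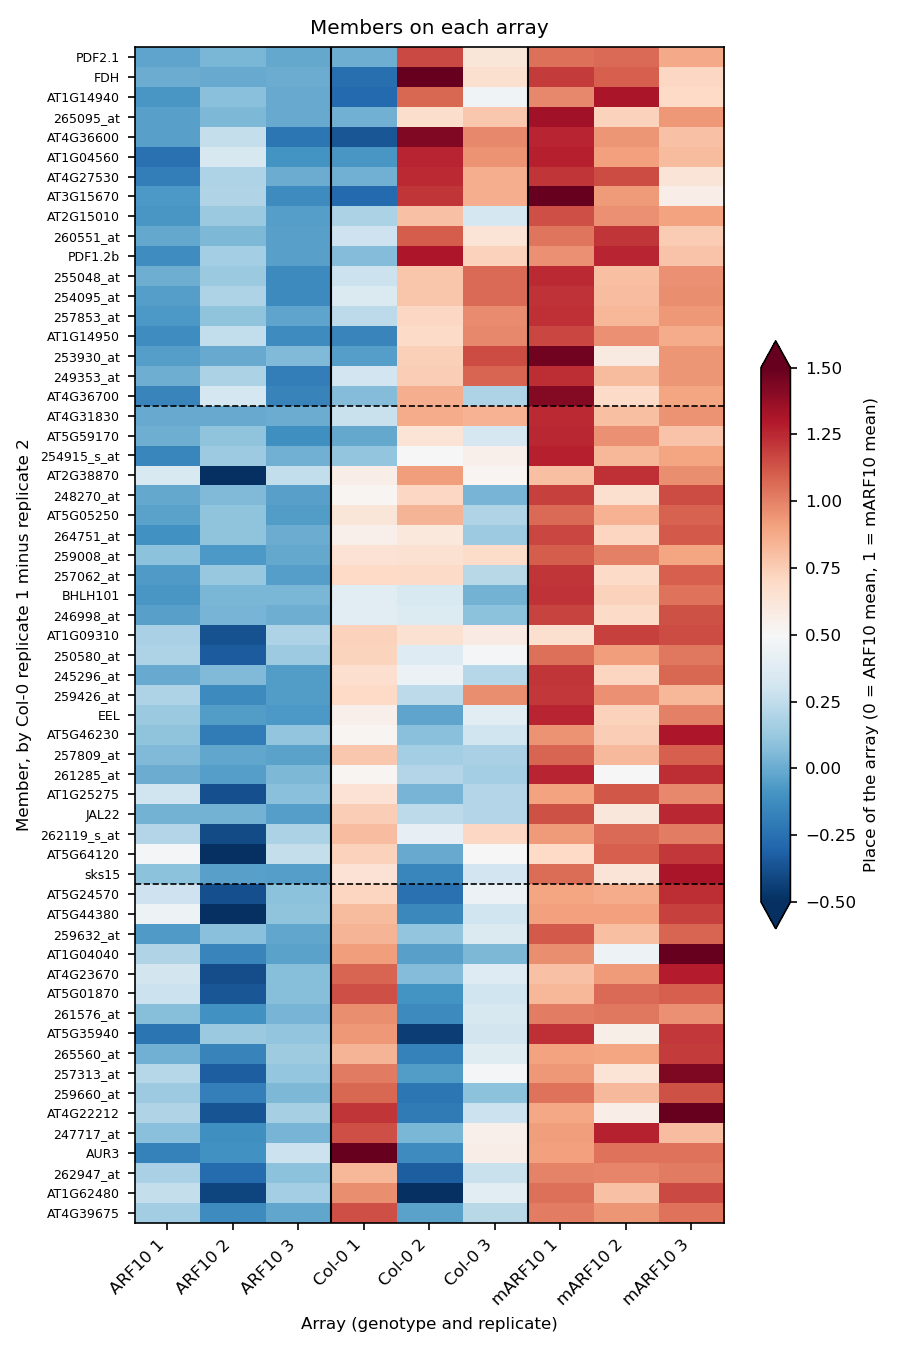
Each of the 59 members (rows, from Col-0 replicate 2 highest at the top to Col-0 replicate 1 highest at the bottom) on each of the 9 arrays (columns). Colour gives the place of the array between the ARF10 mean (0, blue) and the mARF10 mean (1, red), and dashed lines bound the 18 members above, 24 between and 17 below a 2-fold difference of Col-0 replicates 1 and 2.

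Members were divided by their difference between Col-0 replicates 1 and 2. The cut was a log2 difference of 1, chosen after the values were seen, and the sets are opposed by this definition. Col-0 replicate 2 exceeded replicate 1 by at least that much in 18 members, against 2.03% of all tested probe sets. The reverse held in 17 members, against 2.88% of all tested. The rule selects probe sets that vary between arrays and sets no limit on the spread within Col-0, so nothing is read from either excess. The other 24 members were within 2-fold, and 8 of the 9 members with fully ordered arrays were among them. Full order holds all Col-0 arrays inside the gap between the ARF10 and mARF10 arrays. That limits the difference of Col-0 replicates 1 and 2, so nothing is read from this count.

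The 18 members high on Col-0 replicate 2 included PDF2.1, PDF1.2b, AT2G15010, both LEA genes, the cupin gene AT4G36700, AT1G04560, AT1G14940, AT1G14950, FDH and AT4G27530, with 7 unnamed probe sets. In these, the median place was 0.02 for Col-0 replicate 1, 0.97 for replicate 2 and 0.86 for replicate 3. All 3 members on the LEA and storage protein lists were in this set. The mean of the LEA list was also highest on replicate 2 and lowest on replicate 1 among the Col-0 arrays, and its part in the result was not tested.

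The 17 members high on Col-0 replicate 1 included AT4G39675, AT1G62480, AUR3, AT4G22212, AT5G35940, AT5G01870, AT4G23670, AT1G04040, AT5G44380 and AT5G24570, with 7 unnamed probe sets. Their median place was 0.97 for Col-0 replicate 1, -0.13 for replicate 2 and 0.34 for replicate 3. Photosynthesis genes had their lowest mean on Col-0 replicate 2 as well, and their part in the result was not tested. By these medians Col-0 replicate 1 lay near the mARF10 mean in this set and near the ARF10 mean in the other, and Col-0 replicate 2 did the reverse. The sets were defined by the difference of these 2 arrays, and the rule holds the Col-0 mean between the other means. Opposite places of the 2 arrays largely follow from that, so nothing is read from them.

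**Figure D4:**
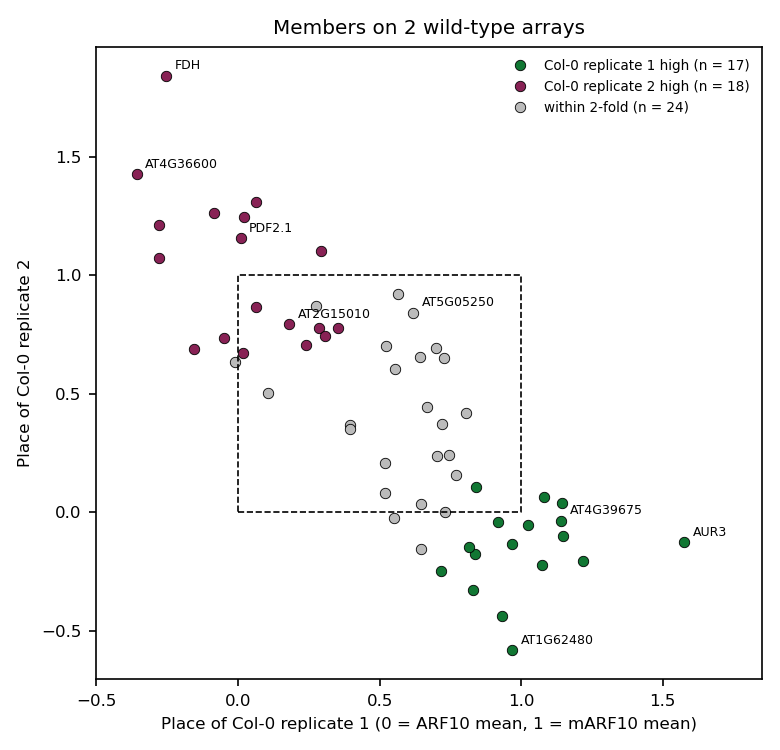
Place of Col-0 replicate 1 (horizontal axis) against that of Col-0 replicate 2 (vertical axis) for the 59 members, where 0 is the ARF10 mean and 1 the mARF10 mean. The dashed square bounds places between the genotype means. The 17 members high on replicate 1 lie at the lower right and the 18 high on replicate 2 at the upper left.

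Replicates of the transgenic genotypes were compared within the same sets. Among the 17 members high on Col-0 replicate 1, ARF10 replicate 2 was the lowest ARF10 array in 14, and mARF10 replicate 3 was the highest mARF10 array in 12. In those 17, mARF10 replicate 2 was the lowest mARF10 array in 12. Among the 18 members high on Col-0 replicate 2, ARF10 replicate 2 was the highest ARF10 array in 16. In those 18, mARF10 replicate 1 was the highest mARF10 array in 14 and replicate 3 the lowest in 11. The same counts were not made over all tested probe sets, so they are not read as a trait of the members. Over the 59 members, Col-0 replicate 1 minus replicate 2 correlated with ARF10 replicate 1 minus replicate 2 at r = 0.64. Over all 15922 tested probe sets the value was 0.52. With mARF10 replicate 3 minus replicate 2 the correlation was 0.43 over the members and 0.60 over all tested, and with mARF10 replicate 1 minus replicate 2 it was -0.21 and 0.21. These are correlations across probe sets on the same arrays, which are not independent, and no p is given.

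Leaving out 1 Col-0 array moved many members across the limits on the place. Without Col-0 replicate 1, 17 of the 59 members kept a place between 0.25 and 0.75. Without replicate 2 the count was 48, and without replicate 3 it was 54. The place stayed within the limits whichever Col-0 array was left out in 12 members, of which AT2G15010, AT1G09310, AT2G38870 and AT5G05250 were named. The median place over the 59 members was 0.37, 0.49 and 0.48 without replicates 1, 2 and 3, but single members moved in both directions. FDH had a place of 1.25 without Col-0 replicate 1 and of 0.20 without replicate 2, and AUR3 had 0.22 and 1.07.

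A linear model over all 9 arrays (limma, Benjamini-Hochberg adjustment over 15922 probe sets, 2-sided, adjusted p under 0.05) called 18 of the 59 members higher in mARF10 than in ARF10, against 0.314% of all tested, and 0.0942% of all tested were called lower. The rule used this contrast, so the count describes the members and supports nothing. Without any 1 of the ARF10 arrays the count was 1, and so it was without mARF10 replicate 1 or 3. It was 8 without mARF10 replicate 2, and leaving out Col-0 replicate 1 or 2 raised it to 45 or 43. Calls over all tested probe sets, higher and lower together, moved as well. They were 65 with all arrays, 27 without mARF10 replicate 2, and 173 or 267 without Col-0 replicate 1 or 2. They were 1 to 5 without 1 ARF10 array, and 2 or 10 without mARF10 replicate 1 or 3. The changes are therefore not read as a trait of the members. The 7 named members among the 18 were AT2G15010, AT4G31830, AT5G46230, AT5G05250, BHLH101, EEL and AT5G59170. Of the 18, 15 were members within 2-fold between Col-0 replicates 1 and 2, whose arrays enter the estimate of spread, and 1 and 2 were members high on replicates 1 and 2. No member was called between mARF10 and Col-0 or between ARF10 and Col-0, where 0% of all tested probe sets were called in either direction. At an unadjusted p under 0.05, 1697 and 739 of all tested probe sets passed in those comparisons.

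Related genes were described by lists, beside the 42.8% of all tested probe sets with a positive difference between mARF10 and ARF10 and the 0.314% called higher. Of 11 defence peptide and chitinase genes measured, 9 had positive differences between mARF10 and ARF10, 2 were called higher and none lower, with a median of 1.04. The called ones were AT2G15010 and the chitinase gene AT2G43590 (1.97), whose Col-0 place of 0.91 kept it out of the members. LCR67 (1.96) and LCR68 (1.04), both low-molecular-weight cysteine-rich peptides, had places of 0.79 and 0.24, beyond the limits, and were not called. PDF1.2, at -0.08, was not called either.

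Of 32 LEA genes measured, 31 had positive differences (against 42.8% of all tested), 2 were called higher (against 0.314%) and none lower, with a median of 0.72. Neither called gene was a member. AT3G02480 differed by 0.97, short of the limit on the difference, and M17 by 3.84 with a place of 0.88. M10 (3.02) and AT3G53040 (1.63) were not called and had places of 0.82 and 0.92. The median LEA difference was -0.63 for ARF10 minus Col-0 and 0.14 for mARF10 minus Col-0. Of 3 storage protein genes, the cupin gene AT2G28490 (3.04) and PAP85 (3.34), of the vicilin family, had places of 0.82 and 0.75, the latter just beyond the limit, and neither was called. Of 4 oil body genes measured, all had positive differences, with a median of 1.27, and 1 was called higher and none lower. The called gene was OLEO3 (1.09), left aside by name like AT3G01570 (1.46), and AT2G25890 (1.54) and AT3G18570 (0.60) were not called.

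No measured gene of the photosynthesis and greening list or of the storage oil breakdown list was a member. These lists do not cover the members of cell wall and growth described above. Of 20 genes on the photosynthesis and greening list 4 were measured, and these had a median difference of -0.28 and none was called, with LHCB4.1 at -0.54, PORB at -0.71, PRK at 0.15 and PSBW at -0.01. Of 13 genes of storage oil breakdown 4 were measured, and these had a median of -0.02 and none was called, with SDP1 at -0.22, AIM1 at 0.21, SDP1-LIKE at -0.06 and ICL at 0.02. The seed coat marker BAN differed by -0.08. No gene of the ferritin and iron store list was named.

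**Figure D5:**
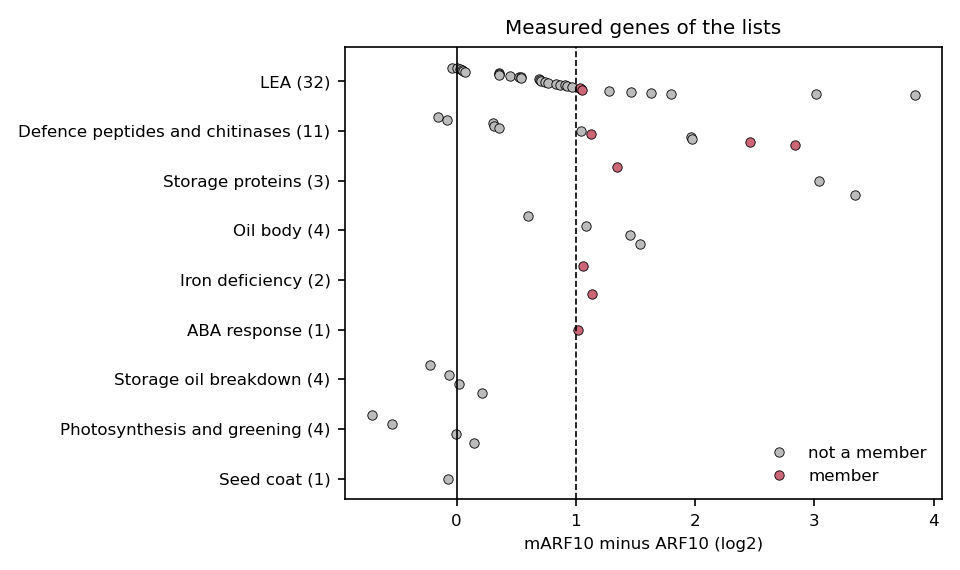
Difference between mARF10 and ARF10 (log2, horizontal axis) for every measured gene of the lists (vertical axis, number of genes in brackets), with members in red. The dashed line marks a difference of 1, and genes beyond it in grey were outside the limits on the place of Col-0 or were left aside by name.

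Some members were close to the limits of the rule. AT5G59170 and EEL, at 1.01 and 1.02, were the smallest differences inside, and AT1G04660 and AT1G20070, both at 0.98, the nearest outside. At the lower limit of the place, BHLH101 and 262947_at (0.26 each) were inside, while AT2G03850 and AT4G30450 (0.25 each after rounding) were outside. At the upper limit FDH (0.749) and 254095_at (0.733) were inside, and PAP85 (0.751) and AT3G17520 (0.765) outside. No probe set with a mean below the limit met every other condition.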

How the data were processed

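The authors deposited 1 log2 signal for each array and probe set; base 2 was inferred from their range of 3.70 to 14.78. No source used here states how these were summarised or normalized. Array medians of 7.06 to 7.11 showed a common scale, and nothing was rescaled. Detection calls were not used here, and the number of arrays limits the precision. Of 22810 probe sets, 64 controls were left out, and tests covered the 15922 whose mean reached the 30th percentile (5.723). Names came from the platform annotation (13513 probe sets with 1 gene, 503 with several, 8730 not listed), of which 13436 matched the TAIR10.1 gene table, used only for names and gene order.

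The fit used limma 3.58.1 (R 4.3.3), with 1 mean for each genotype, the 9 arrays together and eBayes moderation; the procedure was tested on simulated data. SE values are limma's, and SD is over 3 arrays. Counts and plots were made in Python 3.11.15. The members and the 11 gene lists (182 genes) were chosen with earlier results of these data known. Every named member may be named; array values are given for the 12 largest named differences and members on a list, with values by array added after they were seen for other members where single arrays are discussed. Alternatives changed scaling, filter, group summary, limits, fit and arrays. Promoter and protein sequences were not analysed here.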

Additional observations from a re-analysis of the deposited data

How the results depend on the processing

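The number of members was 59 with quantile normalization, 54 with median centring, 41 with group medians (30 of them among the 59), 59 with a filter at the 20th percentile, 45 at the 50th and 59 with a floor at a log2 signal of 4. It was 20 with a difference of at least 1.5 and 34 with a place of 0.33 to 0.67. Leaving out 1 array gave 17 to 82, and the lowest was without Col-0 replicate 1. The members with fully ordered arrays numbered 5 with a difference of at least 1.5 and 9 to 19 with 1 array left out, where the highest counts were without Col-0 replicate 2 or 3, which leaves fewer arrays to order. The median place was 0.37 to 0.49 with 1 Col-0 array left out, a median over members that moved in both directions.

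Members called between mARF10 and ARF10 numbered 18 in the fit of all arrays, 57 with array weights, 54 in a fit of those 2 genotypes alone, 9 with no filter and 1 to 45 with 1 array left out. Over all tested probe sets the call count was 65, against 784 with array weights, 397 in a fit of the 2 genotypes alone and 1 to 267 with 1 array left out. Between mARF10 and Col-0 array weights called 11 members and leaving out 1 array 0 to 3. Over all tested probe sets these counts were 82 and 0 to 14. Between ARF10 and Col-0, 1 member was called with array weights, with a robust, trended eBayes and after quantile normalization, and 0 to 2 with 1 array left out. Over all tested probe sets the count was 1 in each of those fits and 0 to 19 with 1 array left out. The cause was not tested. With the replicate block, the count was 16 members between mARF10 and ARF10 and 0 in the other comparisons, against 70 and 0 of all tested. In 7 of 9 same-numbered pairs of arrays the deviations correlated above 0.1 (-0.17 to 0.49). Pairs with different numbers ran from -0.65 (Col-0 2 with mARF10 3) to 0.61 (Col-0 1 with mARF10 3). The labels do not say that a number marks a shared batch, so the numbers were not taken to pair the samples.

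In 297 recalculations of the 33 named members' mARF10 minus ARF10 difference, the lowest value was 0.74, for AT5G64120 without ARF10 replicate 2. The rule itself keeps the sign when 1 array is left out, since ARF10 and mARF10 arrays may not overlap. With a split at 0.5 between Col-0 replicates 1 and 2, chosen after seeing the data, the sets held 27 members high on replicate 1, 21 high on replicate 2 and 11 within. The planned comparison of promoter and protein features was not run.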

Other observations

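Genes next to the named members in the TAIR10.1 gene order were examined as values. Of 27 neighbouring probe sets tested, 2 were members, AT1G14940 and AT1G14950, which adjoin each other. The other 25 had differences between mARF10 and ARF10 from -0.26 to 1.04 with a median of -0.02, and 2 of them were at least 0.5. These were LCR68, the neighbour of the defensin gene PDF2.1, at 10.97 in ARF10, 11.22 in Col-0 and 12.01 in mARF10 seeds, and AT4G23680, next to AT4G23670, at 7.78, 8.27 and 8.66. AT1G14930, on the other side of AT1G14940, differed by 0.19.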
